A study of Mus musculus with 35 samples.

Results

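The genes described here are the glucocorticoid receptor gene, Nr3c1, and 9 genes known to respond to the activated receptor: Fkbp5, Angptl4, Map3k6, Sgk1, Tsc22d3, Zbtb16, Errfi1, Cdkn1a and Mertk. They were taken by name from the deposited expression matrix, which holds 14870 genes, and all 10 were measured. Corticosterone, the main glucocorticoid of the mouse, enters cells and binds the receptor, which is held in the cytoplasm by heat shock protein chaperones. The bound receptor moves to the nucleus, binds DNA at palindromic glucocorticoid response elements and raises or lowers transcription of nearby genes. In the medial prefrontal cortex (mPFC) this pathway is known for its part in the stress response and in feedback on the hormone axis, and glia, endothelium and neurons all carry the receptor.

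RNA was sequenced in bulk from mPFC punches of mice deficient in the postsynaptic scaffold gene Shank3 (KO) and of wild-type mice (WT), each given 1 of 4 treatments. The groups were KO_abx (n = 3) and WT_abx (n = 4), given antibiotics; KO_acetate (n = 5) and WT_acetate (n = 5), given acetate; KO_abx_and_acetate (n = 4) and WT_abx_and_acetate (n = 4), given both; and KO_control (n = 4) and WT_control (n = 6), given water. The removed exons of Shank3, the strain, the age, the antibiotics, the doses and the time of day of collection are details not given in the sources used here. No circulating hormone level was used. The labels do not say that each library came from its own animal, so a p-value here reflects only how far these libraries scatter.

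The libraries held 12.8 to 28.0 M (mega) reads over the measured genes, median 21.8 M. Shank3 stood at 4.07 to 5.11 log2 CPM (log2 of read counts scaled to library size) in the 16 KO libraries, against 8.22 to 8.85 in 16 of the 19 libraries labelled WT. The 3 others labelled WT (WT_abx 4, WT_acetate 2 and WT_acetate 5) had 7.48 to 8.08. Acr, the gene next to Shank3, stood at 5.04 to 5.78 log2 CPM in KO and -0.46 to 0.83 in those 16 WT libraries, but at 3.62 to 4.56 in these 3, so their WT label is in doubt. Slc17a7, the vesicular glutamate transporter of cortical excitatory neurons, lay between 10.5 and 11.1 log2 CPM in every library. Y-linked genes went against the labelled sex in 4 libraries: WT_abx 3, WT_acetate 2, WT_acetate 4 and WT_acetate 5. KO_acetate 1 had the highest summed level of striatal neuron markers, 2018 CPM, and of oligodendrocyte markers, 10777 CPM. KO_control 1, a male with an RNA integrity number of 8.9 in a series between 8.8 and 9.3, lay farthest from the centre on the first principal component, which held 11.99% of the variance. It was not alone: WT_abx 4 was at -38.9 there, against -44.6 for KO_control 1. On the second component KO_acetate 1 lay farthest, at 60.2. KO_acetate 1 was the highest library for 12.2% of all genes, against 10.6% for KO_control 1. Results are given without KO_control 1, and those of WT_abx and WT_acetate without the 3 libraries of doubtful genotype and the 4 of doubtful sex, where a gene is named at an unadjusted p under 0.05.

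The response element is shown first, because its letters define what the receptor reads. It was searched in RefSeq promoter windows of build GRCm38.p6, which run from 250 bases before to 50 bases after a listed start. Windows were listed for 7 of the 10 genes, 16 windows in all, and the other 3 genes are Nr3c1, Angptl4 and Zbtb16. The motif AGAACA, which 1 receptor subunit reads, was searched on both strands. It occurred in 4 of the 16 windows (3 of Sgk1 and 1 of Tsc22d3), and in 19.0% of all 32851 windows of the table. The full palindrome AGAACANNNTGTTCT, which holds that motif once on each strand, occurred exactly in 1 of the 16 windows, before the fifth of 6 listed starts of Sgk1. That exact palindrome occurred in 3 of the 32851 windows, 0.0091%. Allowing up to 2 mismatches, it occurred in 2 windows of these genes, both of Sgk1, and in 1.84% of all windows. The window with the exact match lies at chr10:21993640-21993939 on the plus strand, within the span that GENCODE gives to Sgk1 (chromosome 10, 21882184 to 21999903), and the palindrome begins at position -189 from the start. Capitals mark each copy of the motif and the palindrome.
Sgk1, start 5 of 6: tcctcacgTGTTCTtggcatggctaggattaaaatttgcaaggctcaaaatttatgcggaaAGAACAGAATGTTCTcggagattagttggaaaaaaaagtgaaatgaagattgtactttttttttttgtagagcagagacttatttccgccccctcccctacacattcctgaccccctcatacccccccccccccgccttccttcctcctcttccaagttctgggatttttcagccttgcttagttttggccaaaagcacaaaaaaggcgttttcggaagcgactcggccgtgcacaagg
A match describes letters only, and no binding was measured in this series.

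In control mice, Angptl4 was the only one of the 10 genes whose KO libraries all lay above all WT libraries. Fkbp5, Map3k6 and Mertk had higher means in KO_control, and Nr3c1 a lower one, but their libraries overlapped. All 5 differences were smaller without KO_control 1. The genotype comparison was a moderated test in limma over all libraries with sex as a term, adjusted over all genes by the Benjamini-Hochberg method. None of the 10 genes passed an adjusted p of 0.05, a threshold passed by 0.0202% of all genes. At an unadjusted p under 0.05 there were 5 of 10, 4 higher and 1 lower in KO, beside 4.0% of all genes. Without KO_control 1 there were 2 of 10, Fkbp5 and Angptl4, beside 2.29%. The list was drawn up with earlier results of these data known, so such counts describe the genes and test nothing about the list.

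Nr3c1 encodes the receptor itself. Its level was 5.93, 6.59, 6.66 and 6.86 log2 CPM in the 4 KO_control libraries, against 6.74 to 6.88 (median 6.82) in the 6 WT_control libraries. KO_control 1 was the lowest of all 35 libraries; of the 3 others, KO_control 4 lay within the WT range and 2 lay below it. The log2 fold was -0.30 ± 0.10 (SE, limma adjusted p = 0.863), and -0.11 ± 0.08 without KO_control 1 (adjusted p = 1.0). In the 6 treated groups the means lay between 6.68 and 6.76 log2 CPM, and Nr3c1 was at an unadjusted p under 0.05 in no comparison other than that of the controls.

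Fkbp5 encodes a co-chaperone that lowers the receptor's affinity for hormone and is itself induced by the receptor, a short feedback loop. It stood at 7.33, 5.02, 5.42 and 5.20 log2 CPM in KO_control, against 4.31 to 5.06 (median 4.72) in WT_control. KO_control 1 was far above the rest, and of the 3 others only KO_control 2 fell inside the WT range. The log2 fold was 1.03 ± 0.28 (adjusted p = 0.506) with all libraries and 0.48 ± 0.20 (adjusted p = 1.0) without KO_control 1. In labelled males it was 1.69 ± 0.41 and in labelled females, where KO_control 1 takes no part, 0.37 ± 0.16.

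Angptl4 encodes a secreted inhibitor of lipoprotein lipase. It stood at 3.60, 1.75, 1.69 and 1.31 log2 CPM in KO_control, against 0.23 to 1.03 (median 0.83) in WT_control. The groups did not overlap, with or without KO_control 1, a state shared by 0.773% of all genes with it and 1.65% without it. The log2 fold was 1.38 ± 0.33 (adjusted p = 0.364), and 0.87 ± 0.30 (adjusted p = 1.0) without KO_control 1. It was 1.92 ± 0.45 in labelled males and 0.84 ± 0.32 in labelled females. The transcript was scarce: the WT_control values rest on 27 to 53 reads per library, and that of KO_control 1 on 272 reads.

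Map3k6 encodes a stress-activated protein kinase kinase kinase, and Mertk a receptor tyrosine kinase with which astrocytes, microglia and macrophages take up debris. Map3k6 stood at 4.73, 2.62, 3.15 and 2.67 log2 CPM in KO_control, against 2.27 to 3.01 (median 2.60) in WT_control. Its log2 fold of 0.66 ± 0.26 (adjusted p = 1.0) became 0.14 ± 0.18 (adjusted p = 1.0) without KO_control 1, and -0.03 ± 0.18 in labelled females. Mertk stood at 6.30, 5.80, 5.99 and 6.05 log2 CPM in KO_control, against 5.39 to 5.91 (median 5.68) in WT_control. Of the 3 other KO_control libraries, 2 lay above the WT range and KO_control 2 within it. The log2 fold was 0.38 ± 0.13 (adjusted p = 0.831) with KO_control 1 and 0.28 ± 0.14 (adjusted p = 1.0) without it.

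The remaining 5 genes had log2 folds between 0.09 and 0.32 in control mice. Sgk1, a kinase named for its induction by serum and glucocorticoids that acts on ion channels and on myelinating cells, stood at 7.06, 4.98, 5.78 and 5.33 log2 CPM in KO_control, against 5.25 to 6.31 (median 5.51) in WT_control. Its log2 fold was 0.16 ± 0.26 (adjusted p = 1.0), and -0.26 ± 0.22 (adjusted p = 1.0) without KO_control 1. Tsc22d3 encodes GILZ, the glucocorticoid-induced leucine zipper that mediates anti-inflammatory effects of the hormone. Tsc22d3 stood at 6.78, 5.30, 6.23 and 6.18 log2 CPM in KO_control, against 5.54 to 6.11 (median 5.94) in WT_control, with log2 folds of 0.22 ± 0.21 (adjusted p = 1.0) and, without KO_control 1, -0.05 ± 0.20 (adjusted p = 1.0). Errfi1, an inhibitor of the EGF receptor, stood at 5.69, 4.39, 4.87 and 4.81 log2 CPM in KO_control, against 4.68 to 5.004 (median 4.85) in WT_control, with log2 folds of 0.09 ± 0.14 (adjusted p = 1.0) and, without KO_control 1, -0.16 ± 0.10 (adjusted p = 1.0). In all 3 of these genes the sign of the fold turned when KO_control 1 was left out.

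Zbtb16 (the transcription factor PLZF) and Cdkn1a (the cell cycle inhibitor p21) are given by labelled sex as well. Zbtb16 stood at 7.18, 6.64, 6.46 and 6.59 log2 CPM in KO_control, against 6.03 to 6.74 (median 6.43) in WT_control, where the 3 males had 6.03 to 6.24 and the 3 females 6.62 to 6.74. Cdkn1a stood at 6.32, 4.95, 5.79 and 5.69 log2 CPM in KO_control, against 4.53 to 6.33 (median 5.83) in WT_control, where the 3 males had 4.53 to 5.63 and the 3 females 6.03 to 6.33. In both genes every WT_control female lay above every WT_control male. This held for 6 of the 10 genes (these and Fkbp5, Map3k6, Mertk and Tsc22d3) and for 9.77% of all genes, a split seen after the values were examined and not tested. The split was not seen in every group. In KO_control both females lay below both males for Zbtb16 (6.46 and 6.59, against 6.64 and 7.18) but between them for Cdkn1a. In WT_abx_and_acetate the 1 female lay above the males for Zbtb16 (6.99 against 5.78 to 5.93). It lay below them for Cdkn1a (3.95 against 4.85 to 5.03). The WT_control females had higher immediate early gene sums (described below), 3600 to 4108 CPM against 2073 to 2594 in the males. The genotype log2 fold of Zbtb16 was 0.32 ± 0.26 (adjusted p = 1.0), and 0.12 ± 0.27 without KO_control 1 (adjusted p = 1.0). That of Cdkn1a was 0.14 ± 0.30 (adjusted p = 1.0), and -0.10 ± 0.32 without KO_control 1 (adjusted p = 1.0). In labelled males alone, with 2 KO libraries of which 1 is KO_control 1, the folds were 0.80 ± 0.41 for Zbtb16 and 0.72 ± 0.38 for Cdkn1a. The other KO male, KO_control 2, stood at 6.64 for Zbtb16, above the WT_control males. For Cdkn1a it stood at 4.95, within their range. In labelled females alone the folds were -0.16 ± 0.11 and -0.45 ± 0.17, and the sexes were not tested against each other.

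**Figure D1:**
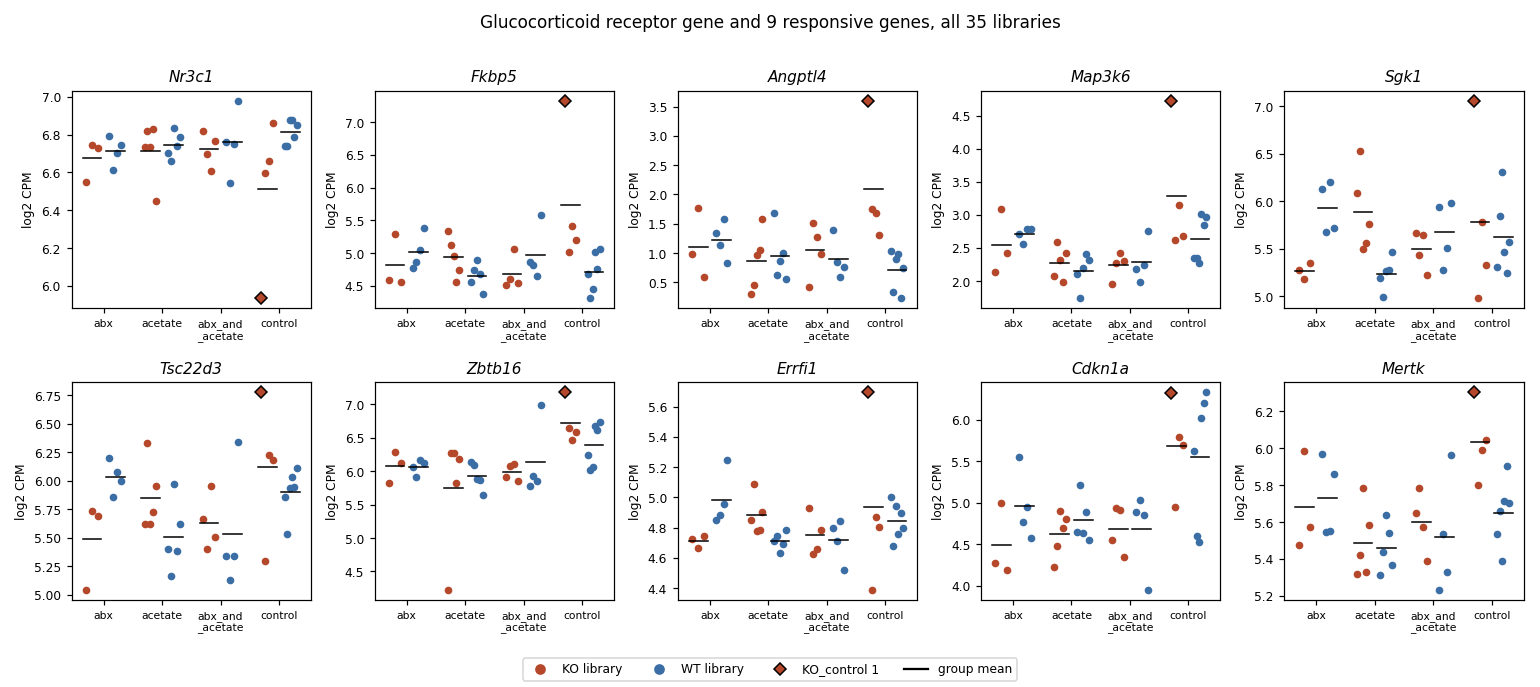
Level of each of the 10 genes (y axis, log2 CPM, a separate scale per gene) in all 35 libraries by treatment, KO left of WT; short lines are group means and the diamond is KO_control 1. Except for Nr3c1, where it is the lowest at 5.93, and Cdkn1a, the diamond is the highest point of every panel, at 7.33 for Fkbp5 and 3.60 for Angptl4.

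**Figure D2:**
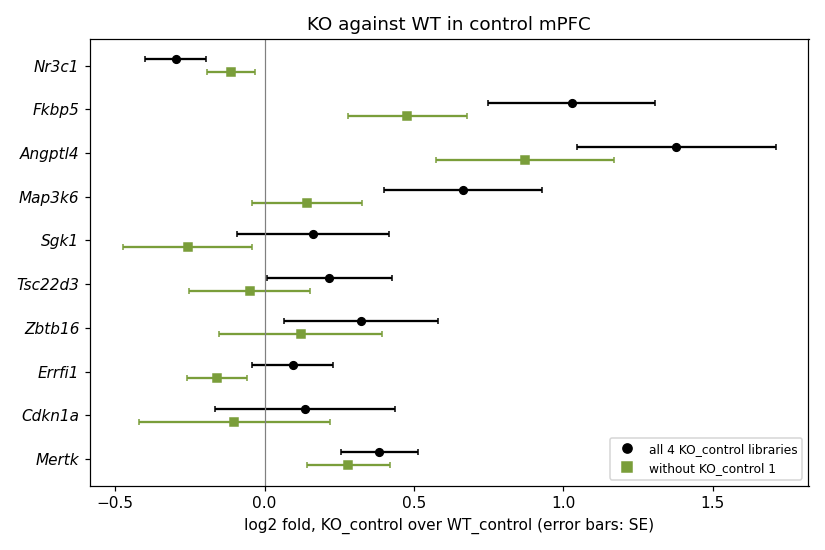
KO_control over WT_control log2 fold of each gene (x axis; bars are SE from the limma fit), with all 4 KO_control libraries (circles) and without KO_control 1 (squares). Angptl4 is at 1.38 and 0.87 and Fkbp5 at 1.03 and 0.48, while the squares of Sgk1, Tsc22d3, Errfi1 and Cdkn1a lie on the other side of 0 from their circles.

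KO_control 1 (the library titled s1209) stood apart in these genes. It was the highest of the 35 libraries for 8 of the 10, all but Nr3c1 and Cdkn1a, while it was the highest for 10.6% of all genes. It was the lowest for 1, Nr3c1, and for 8.53% of all genes. Against the median of the other 34 libraries it had 6.15 times the CPM of Angptl4, 5.77 times that of Fkbp5, 5.09 times that of Map3k6 and 2.94 times that of Sgk1. The ratios were 2.73 for Cdkn1a, 2.12 for Zbtb16, 2.07 for Tsc22d3, 1.88 for Errfi1 and 1.66 for Mertk, and 0.571 for Nr3c1. The gap between KO_control 1 and the next highest library was 1.83 log2 units for Angptl4, 1.74 for Fkbp5 and 1.58 for Map3k6, and 0.19 for Zbtb16. Averaged over the 9 responsive genes, KO_control 1 lay 1.50 log2 units above the all-library mean, and the next library, KO_control 3, 0.43 above it.

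The same library stood out in a wider list of 30 genes known to be induced by glucocorticoids, of which 29 were measured. KO_control 1 was the highest of all libraries for 19 of the 29 and the lowest for none, again beside 10.6% of all genes. This list, like the genes described above, was chosen with earlier results of these data known. The counts from both lists therefore describe KO_control 1 and do not test whether it stands apart. Plin4, a lipid droplet coat protein, stood at 6.29 log2 CPM there, against 0.38 to 3.25 in the other 34 libraries. Hif3a, a hypoxia-inducible factor subunit, stood at 4.94 against 1.11 to 3.96, and Arrdc2 at 5.49 against 2.75 to 3.81. Of the genes not highest there, Per1 of the circadian clock stood lower in the order (6.72 log2 CPM, 23rd from the top), as did the phosphatase gene Dusp1 (4.99, 33rd from the top). Plin4 and Arrdc2, a gene of the arrestin domain family, were picked after their values were seen.

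Other features of KO_control 1 were as follows. The summed level of 29 immediate early genes, which neurons switch on within minutes of activity, was 941 CPM, the lowest of the 35 libraries, whose others ran from 1156 to 4108. The sum of 18 oligodendrocyte markers was 4579 CPM, against 1762 to 2798 in the other KO_control libraries and 2280 to 3666 in WT_control, and 3 other libraries were higher. The sum of 14 meningeal and choroid plexus markers was 238 CPM, with 3 libraries higher, and that of 12 cortical excitatory neuron markers was 7629 CPM, with 31 higher. The sum of 20 endothelial markers was 498 CPM and that of 16 microglial markers 436 CPM, each with 31 libraries higher. KO_control 2 had a lower endothelial sum, 489 CPM. KO_control 1 was the lowest library for 9 of the 20 endothelial markers, beside 8.53% of all genes. The sum of astrocyte markers had 9 libraries higher. The part of cell composition in the shift of the 10 genes was not tested, and in bulk tissue fewer cells of a type cannot be told apart from less RNA per cell.

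**Figure D3:**
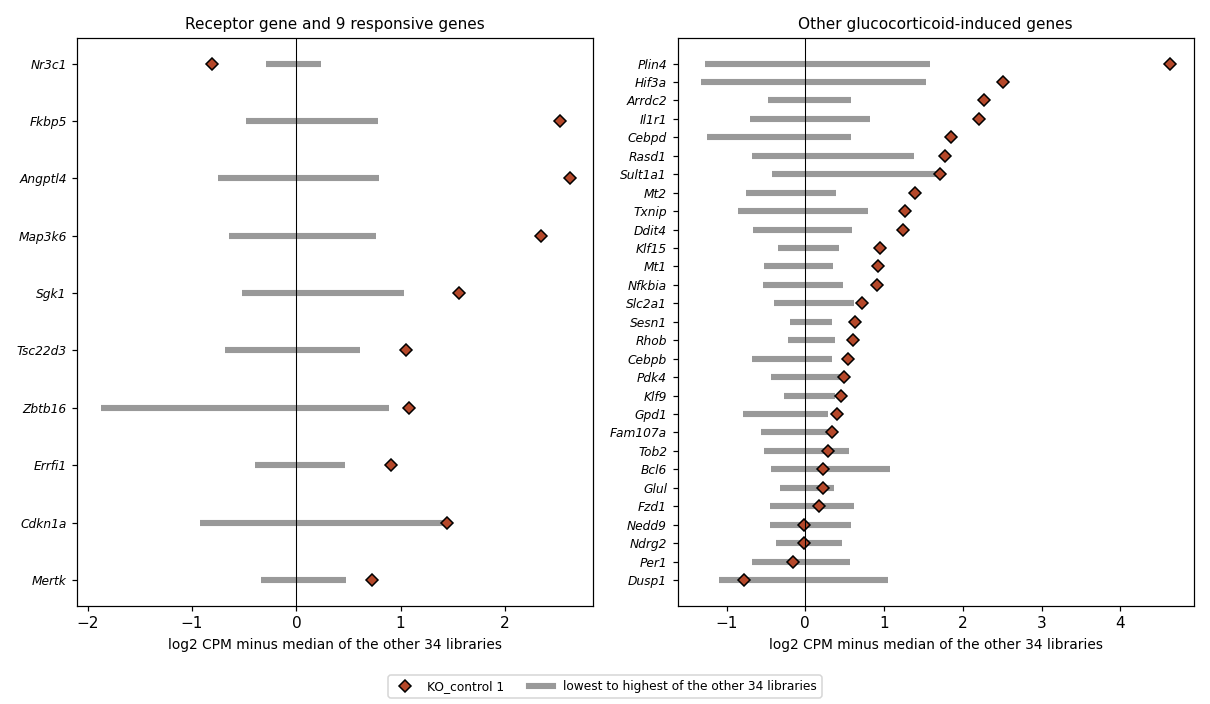
Level in KO_control 1 minus the median of the other 34 libraries (x axis, log2 CPM; diamonds), with the range of those 34 libraries as a grey bar, for the 10 genes (left) and 29 other glucocorticoid-induced genes (right). Outside the bar lie 9 of the 10 diamonds on the left, Cdkn1a being the exception, with Plin4 the farthest on the right.

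Without KO_control 1, the wider list showed no common direction between the genotypes in control mice. With all libraries 20 of its 29 genes were higher in KO_control and 9 lower, with a median log2 fold of 0.18, beside -0.0016 over all genes, and none passed the adjusted threshold. Without KO_control 1, 13 were higher and 16 lower, with a median of -0.04. For the 10 genes the medians were 0.27 with and 0.04 without that library. The 3 genes of the wider list with the smallest p were Per1 (log2 fold -0.66 ± 0.18, adjusted p = 0.455), Dusp1 (-0.86 ± 0.29, adjusted p = 0.83) and Hif3a (1.20 ± 0.41, adjusted p = 0.831). Per1 and Dusp1 were lower in KO_control with and without KO_control 1, at -0.72 and -0.77 without it, whereas Hif3a was at 0.60. Per1 stood at 6.72, 6.20, 6.63 and 6.95 log2 CPM in KO_control, against 6.96 to 7.45 in WT_control, so the groups did not overlap, by a margin of KO_control 4 at 6.95 against WT_control 1 at 6.96. Such a state was shared by 0.773% of all genes, and Per1 was picked here for the smallest p of its list. The immediate early gene sums were also lower in most KO_control libraries, at 941, 1263, 1982 and 2764 CPM, against 2073 to 4108 CPM in WT_control. The highest of them, KO_control 4, lay above the WT_control males, which had 2073 to 2594 CPM. Of the 29 immediate early genes, 27 had a lower mean in KO_control (median log2 fold -0.92). At an unadjusted p under 0.05 there were 21 of them, beside 4.0% of all genes, and at the adjusted threshold 0, beside 0.0202%. Without KO_control 1, 28 were lower (median -0.72), 16 at an unadjusted p under 0.05, beside 2.29% of all genes. The part of this shift in the values of Per1 and Dusp1 was not tested.

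The chaperones, coregulators and ligand-supplying genes of the pathway, 17 measured of 18 listed, are those that hold and supply the receptor. In control mice 6 were higher and 11 lower in KO, with a median log2 fold of -0.02, beside 14 higher, 3 lower and a median of 0.05 without KO_control 1. That library was the highest for 0 of the 17, beside 10.6% of all genes, and the lowest for 0, beside 8.53%. It stood at rank 33 or lower of 35 for 9 of them. The share of all genes at such ranks was not counted, so the 9 cannot be read as a trait of these genes. The 3 genes with the smallest p were Crhbp, which binds corticotropin-releasing hormone (0.29 ± 0.12, adjusted p = 1.0), Nr3c2, the mineralocorticoid receptor that also binds corticosterone (-0.21 ± 0.11, adjusted p = 1.0), and the coactivator gene Ncoa1 (0.05 ± 0.05, adjusted p = 1.0). Without KO_control 1 the folds were, in that order, 0.40 ± 0.13, -0.19 ± 0.13 and 0.07 ± 0.06, so those of Crhbp and Ncoa1 were larger. Nr3c2 stood at 4.63, 4.62, 4.80 and 4.84 log2 CPM in KO_control, against 4.81 to 5.10 in WT_control.

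Under treatment the KO and WT libraries of Sgk1 did not overlap in the antibiotic groups, where KO was lower, or in the acetate groups, where KO was higher. The 2 differences were not tested against each other. In the antibiotic groups Sgk1 stood at 5.28, 5.18 and 5.35 log2 CPM in KO_abx, against 6.13, 5.67, 6.20 and 5.72 in WT_abx. The KO libraries all lay below the WT libraries, and the log2 fold was -0.69 ± 0.30 (adjusted p = 0.995). Tsc22d3 stood at 5.04, 5.73 and 5.69 log2 CPM in KO_abx, against 6.20, 5.86, 6.08 and 5.998 in WT_abx, again without overlap (-0.51 ± 0.25, adjusted p = 0.995). Errfi1 did not overlap either, at 4.72, 4.66 and 4.74 in KO_abx against 4.85, 4.89, 4.96 and 5.25 in WT_abx. Groups without overlap were found for 5.33% of all genes in this comparison. Of the 10 genes 2 were at an unadjusted p under 0.05, beside 3.78% of all genes, and 0 at the adjusted threshold, beside 0.0134%. Without the 4 libraries that go against their sex label, Sgk1 was at -0.57 ± 0.33 and Tsc22d3 at -0.53 ± 0.28, and neither was at an unadjusted p under 0.05. Without the 3 libraries of doubtful genotype they were at -0.73 ± 0.33 and -0.56 ± 0.27, and both were.

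In the acetate groups Sgk1 stood at 6.09, 6.53, 5.50, 5.56 and 5.76 log2 CPM in KO_acetate, against 5.19, 4.99, 5.26, 5.28 and 5.47 in WT_acetate. Every KO library lay above every WT library, narrowly for KO_acetate 3 over WT_acetate 5, and 0.491% of all genes had groups without overlap. The log2 fold was 0.67 ± 0.25 (adjusted p = 0.827). It was 0.75 ± 0.35 without the libraries against their sex label, 0.71 ± 0.30 without the 3 of doubtful genotype, 0.63 without KO_acetate 1, and 0.52 without KO_acetate 2, the highest library, where its unadjusted p was no longer under 0.05. Sgk1 was the 1 gene of the 10 at an unadjusted p under 0.05, beside 5.97% of all genes, and 0 of 10 passed the adjusted threshold, beside 0.00672%. Given both antibiotics and acetate, the genotypes overlapped for all 10 genes (no overlap for 3.15% of all genes), with log2 folds between -0.29 and 0.21. There 0 of 10 were at an unadjusted p under 0.05, beside 3.7%, and 0 at the adjusted threshold, beside 0.0134%. Averaged over the 4 treatments, 0 of 10 were at an unadjusted p under 0.05 (5.25% of all genes; 4.08% without KO_control 1, again 0 of 10) and 0 at the adjusted threshold (0.0202%).

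In KO mice the treated groups lay below KO_control for most of the 10 genes. The 3 comparisons share the 4 KO_control libraries and so are not independent. Antibiotics against control gave 6 of 10 at an unadjusted p under 0.05, all lower, beside 3.3% of all genes, and 1 of 10 without KO_control 1, beside 5.14%. Acetate against control gave 6 of 10, all lower, beside 13.0%, and without KO_control 1 again 6, of which 5 were lower and Sgk1 was higher, beside 8.41%. All KO_acetate libraries lay below all KO_control libraries for 4 of the 10 (Map3k6, Zbtb16, Cdkn1a and Mertk), with groups that did not overlap, in either direction, for 3.31% of all genes, and for the same 4 without KO_control 1, beside 5.9%. Antibiotics with acetate gave 7 of 10, all lower, beside 7.42%, and 4 without KO_control 1, beside 5.78%. At the adjusted threshold there were 0 of 10 in each, beside 0.0134% of all genes for antibiotics and 0.0% for the other two.

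Cdkn1a stood at 4.28, 4.99 and 4.19 log2 CPM in KO_abx, at 4.22, 4.47, 4.90, 4.69 and 4.80 in KO_acetate and at 4.55, 4.94, 4.91 and 4.35 in KO_abx_and_acetate, against 6.32, 4.95, 5.79 and 5.69 in KO_control. KO_control 2 lay just below the highest KO_abx library, and the other control libraries lay above every treated one. The log2 folds were -1.19 ± 0.36 (adjusted p = 0.999), -1.06 ± 0.31 (adjusted p = 0.205) and -1.03 ± 0.33 (adjusted p = 0.474) in that order of treatments. Without KO_control 1 they were -0.94 ± 0.37 (adjusted p = 0.953), -0.82 ± 0.33 (adjusted p = 0.545) and -0.81 ± 0.35 (adjusted p = 0.807).

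Fkbp5 stood at 4.59, 5.30 and 4.56 log2 CPM in KO_abx, at 5.33, 5.12, 4.96, 4.56 and 4.74 in KO_acetate and at 4.52, 4.61, 5.06 and 4.55 in KO_abx_and_acetate, beside the KO_control values given above. Its log2 folds against control were -0.93 ± 0.33 for antibiotics (adjusted p = 0.999), -0.80 ± 0.29 for acetate (adjusted p = 0.279) and -1.06 ± 0.31 for both (adjusted p = 0.462). Without KO_control 1 the fold for both treatments was -0.54 ± 0.21 (adjusted p = 0.769), and those for antibiotics and for acetate were -0.36 and -0.24. The 3 remaining KO_control libraries overlapped the libraries of each treated group.

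Angptl4 was at -0.99 ± 0.40 for antibiotics (adjusted p = 0.999), -1.23 ± 0.35 for acetate (adjusted p = 0.205) and -1.01 ± 0.37 for both (adjusted p = 0.54). Without KO_control 1, acetate kept an unadjusted p under 0.05 (-0.71 ± 0.31, adjusted p = 0.558), and the folds for antibiotics and for both were -0.46 and -0.53. Map3k6 was at -0.72 ± 0.31 (adjusted p = 0.999), -1.001 ± 0.28 (adjusted p = 0.205) and -1.08 ± 0.29 (adjusted p = 0.401) for the same 3 treatments. Without KO_control 1, Map3k6 was at -0.18 for antibiotics, -0.47 ± 0.19 for acetate (adjusted p = 0.545) and -0.59 ± 0.20 for both (adjusted p = 0.711). Both genes thus had smaller differences once the library with their highest level was left out.

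Mertk was at -0.35 ± 0.15 for antibiotics (adjusted p = 0.999), -0.54 ± 0.14 for acetate (adjusted p = 0.205) and -0.45 ± 0.14 for both (adjusted p = 0.472). It stood at 5.32, 5.42, 5.79, 5.33 and 5.58 log2 CPM in KO_acetate, against 6.30, 5.80, 5.99 and 6.05 in KO_control, without overlap but narrowly, at KO_acetate 3 against KO_control 2. Without KO_control 1 it was at -0.24 for antibiotics, -0.44 ± 0.14 for acetate (adjusted p = 0.449) and -0.35 ± 0.15 for both (adjusted p = 0.79). Tsc22d3 was at -0.60 ± 0.25 for antibiotics (adjusted p = 0.999) and -0.54 ± 0.23 for both treatments (adjusted p = 0.611), and without KO_control 1 at -0.32 and -0.29.

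Zbtb16 was at -0.94 ± 0.27 for acetate (adjusted p = 0.205) and -0.79 ± 0.28 for both treatments (adjusted p = 0.533). Its KO_acetate values were 4.23, 6.27, 6.28, 5.83 and 6.18 log2 CPM, against 7.18, 6.64, 6.46 and 6.59 in KO_control. The groups did not overlap. The lowest value was that of KO_acetate 1, the library with the highest striatal and oligodendrocyte marker sums, whose part in this value was not tested. Without that library the fold for acetate was -0.58 (adjusted p = 0.363), and without KO_control 1 it was -0.73 ± 0.28 (adjusted p = 0.528). The fold of Zbtb16 for both treatments was -0.60 without KO_control 1. Sgk1 was at 0.52 ± 0.22 for acetate without KO_control 1 (adjusted p = 0.558), beside 0.09 with all libraries. Nr3c1 and Errfi1 were not at an unadjusted p under 0.05 for any treatment in KO.

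In WT mice Cdkn1a had the largest difference from control of the 10 genes under each treatment, and the other 9 genes had log2 folds between -0.44 and 0.51. Cdkn1a stood at 5.55, 4.77, 4.95 and 4.58 log2 CPM in WT_abx, at 4.65, 5.21, 4.63, 4.89 and 4.56 in WT_acetate and at 4.89, 5.03, 4.85 and 3.95 in WT_abx_and_acetate, against 4.53 to 6.33 (median 5.83) in WT_control. The treated libraries overlapped the 2 lower control males in every group. The log2 folds were -0.59 for antibiotics, -0.74 ± 0.29 for acetate (adjusted p = 0.403) and -0.85 ± 0.30 for both (adjusted p = 0.177), the smallest adjusted p of any of the 10 genes in any comparison. Left without WT_abx_and_acetate 4, the lowest library and the only female of its group, the last fold was -0.52 (adjusted p = 0.442). Left without WT_control 3, the lowest of the controls, it was -1.07 (adjusted p = 0.0589). The fold for acetate was -0.73 ± 0.34 (adjusted p = 0.498) without the 3 libraries of doubtful genotype. It was -0.84 ± 0.41 (adjusted p = 0.548) without the 4 against their sex label and -0.64 (adjusted p = 0.538) without WT_acetate 5, and in both of these the unadjusted p was no longer under 0.05. With all libraries Cdkn1a was the 1 gene of the 10 at an unadjusted p under 0.05 for acetate, beside 9.41% of all genes, and for both treatments, beside 14.4%. There were 0 of 10 for antibiotics, beside 9.05%. At the adjusted threshold there were 0 of 10 throughout, beside 0.0% of all genes for antibiotics, 0.00672% for acetate and 0.726% for both treatments.

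Acetate added to antibiotics was compared with antibiotics alone in each genotype. In KO mice the log2 folds of the 10 genes lay between -0.36 and 0.28, 5 above and 5 below 0, and 0 of 10 were at an unadjusted p under 0.05, beside 2.0% of all genes. In WT mice they lay between -0.44 and 0.13, 2 above and 8 below 0, with 0 of 10, beside 6.12%. At the adjusted threshold there were 0 of 10, beside 0.0% of all genes, in both genotypes.

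Whether treatment acted differently in the genotypes was tested as an interaction, the treatment log2 fold in KO minus that in WT. For antibiotics 5 of 10 genes were at an unadjusted p under 0.05, all negative, beside 2.47% of all genes: Angptl4 (-1.51 ± 0.52), Fkbp5 (-1.23 ± 0.44), Tsc22d3 (-0.73 ± 0.33), Sgk1 (-0.85 ± 0.40) and Mertk (-0.43 ± 0.20), each with an adjusted p = 1.0. Without the 3 libraries of doubtful genotype Mertk was no longer among them (-0.39 ± 0.22), and without the 4 against their sex label Sgk1 was not (-0.73 ± 0.42). Without KO_control 1 there were 2, beside 2.36%: Angptl4 (-0.98 ± 0.44) and Fkbp5 (-0.66 ± 0.29), both with an adjusted p = 1.0. Tsc22d3, Sgk1 and Mertk were then at -0.45, -0.41 and -0.32. For acetate there was 1, Angptl4 (-1.44 ± 0.47, adjusted p = 0.997), beside 3.65%. It was at -1.68 ± 0.52 without the 3 libraries and -1.74 ± 0.57 without the 4. Without KO_control 1 there were 3, beside 3.3%: Angptl4 (-0.96 ± 0.40), Sgk1 (0.91 ± 0.29) and Errfi1 (0.33 ± 0.13), each with an adjusted p = 0.999. For both treatments together there were 2, Angptl4 (-1.17 ± 0.50, adjusted p = 0.999) and Fkbp5 (-1.32 ± 0.42, adjusted p = 0.877), beside 4.53%, and without KO_control 1 only Fkbp5 (-0.84 ± 0.28, adjusted p = 0.997), beside 3.81%. Angptl4 was then at -0.73. At the adjusted threshold there were 0 of 10 in each interaction, beside 0.0% of all genes. These differences draw on the same control libraries as the comparisons within each genotype.

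**Figure D4:**
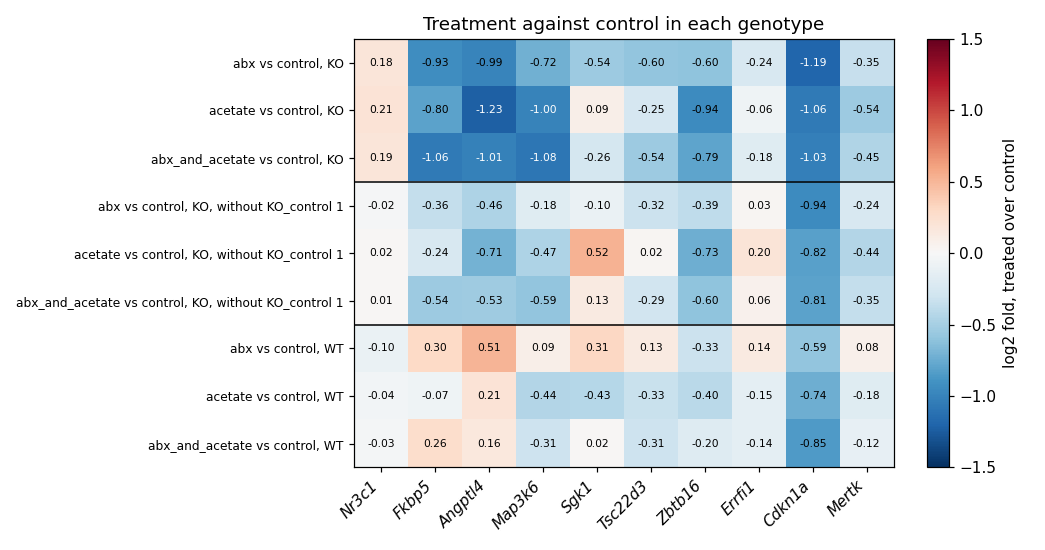
Log2 fold of treated over control libraries for each of the 10 genes (columns) in KO, in KO without KO_control 1, and in WT (rows); blue is lower and red higher in treated libraries. Cdkn1a is negative in every row, from -0.59 to -1.19, and the KO values of Fkbp5, Angptl4 and Map3k6 are nearer 0 without KO_control 1.

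Across the 34 libraries other than KO_control 1, the genes whose levels followed Fkbp5 most closely were Hif3a (Pearson r = 0.755), Xdh (0.729), Atp10a (0.710), Picalm (0.685) and Gdf10 (0.682), all outside the 10. The libraries fall into treatment groups and differ in sequencing depth, and these r values are given as a description. With group means subtracted, r was 0.768, 0.785, 0.833, 0.726 and 0.700 in that order of genes. Among the 10 genes, Map3k6 ranked 32nd of all genes by r without that subtraction (r = 0.589), Tsc22d3 102nd (0.520) and Mertk 104th (0.519). Angptl4 (0.219), Sgk1 (0.215), Zbtb16 (0.245), Cdkn1a (0.158), Nr3c1 (0.140) and Errfi1 (0.045) had ranks between 2256 and 6463. With KO_control 1 included, the r of Angptl4 with Fkbp5 was 0.659 and that of Map3k6 was 0.833, beside the 0.219 and 0.589 without it.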

How the data were processed

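The deposited matrix holds log2 values, log2 CPM in the form that voom gives: the authors' log2 of reads plus 0.5 over an effective library size. This form was checked on the values: inverting it gave whole reads, to a tolerance of 0.01, for 100% of them. Limma, without a version, is named in the submitters' processing notes. The sources used here give no aligner, counter, strand setting, genome build or filter on low genes, and overlapping or antisense genes may share reads. Per the labels, libraries came from mPFC punches with a strand-marking kit; 0 columns were left unused.

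Tests were run here on the deposited log2 values with limma 3.58.1 in R 4.3.3 (no pseudocount or filter added): 1 fit of all 35 libraries with 8 group means and labelled sex, a trended prior variance, 2-sided p, and Benjamini-Hochberg adjustment over all 14870 genes in each of 16 comparisons, tested on simulated data. An SE is from that fit. Replicate numbers only name libraries. An adjusted p printed as 1.0 is rounded. GENCODE vM21 (GRCm38) gave the gene span, and RefSeq (GRCm38.p6) the promoters.

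The genes and all lists were chosen with earlier results of these data known. The rule for named genes, which also asked for unadjusted p (only adjusted p is printed), takes all 10 genes in the control comparison and, elsewhere, those at an unadjusted p under 0.05; from each wider list the 3 smallest p; and the 5 genes most like Fkbp5. Other genes or differences named were picked after their values were seen. Alternatives were voom weights, no sex term, 2 other prior variances, median-centred libraries, a filter at a mean log2 CPM of 0, an RNA integrity term, only the compared groups, 1 sex, and leaving libraries out.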

Additional observations from a re-analysis of the deposited data

Results flagged for a closer look

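For each gene and each group of 4 or more libraries, the gap between an extreme library and its neighbour was divided by the group's range and set against Dixon's critical value, which chance exceeds in about 1 in 20 groups. Of 70 gene and group pairs, 5 exceeded it. Nr3c1 was low in KO_acetate 5, at 6.4506 log2 CPM against 6.734 to 6.8312 in the other libraries of that group. Fkbp5 was high in KO_abx_and_acetate 3, at 5.0564 against 4.519 to 4.6057. Zbtb16 was low in KO_acetate 1, at 4.2258 against 5.8272 to 6.2756, in the library whose striatal and oligodendrocyte marker sums were the highest. In WT_abx_and_acetate 4, the shallowest library and the only labelled female of its group, Zbtb16 was high, at 6.9904 against 5.7834 to 5.928, and Cdkn1a was low, at 3.9519 against 4.855 to 5.0334. In KO_control no gene exceeded the value: the ratios of KO_control 1 were 0.827 for Fkbp5 and 0.806 for Angptl4, under the 0.829 that 4 libraries require. The causes were not tested.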

How the results depend on the processing

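In all 16 comparisons, 0 of the 10 genes passed the adjusted threshold under every alternative run (340 counts). The smallest adjusted p under any of them was 0.0589, for Cdkn1a in abx_and_acetate against control in WT without WT_control 3. Log2 folds were recomputed for 42 results: all 10 genes in the control comparison and, elsewhere, those at an unadjusted p under 0.05. Of 814 such folds, 805 kept their direction and their side of the threshold and 9 changed sign, all in KO against WT in control mice. Without KO_control 1 these were Sgk1 at -0.26, Errfi1 at -0.16, Cdkn1a at -0.10 and Tsc22d3 at -0.049. Cdkn1a was also at -0.05 without WT_control 2 and -0.07 without WT_control 3. In labelled females alone Map3k6 was at -0.028, Zbtb16 at -0.16 and Cdkn1a at -0.45. Over the libraries left out in turn, Sgk1 ranged from -0.26 to 0.47, Tsc22d3 from -0.049 to 0.47, Errfi1 from -0.16 to 0.29 and Cdkn1a from -0.10 to 0.37. Folds outside the 42 results were not counted, and some of those also changed sign without KO_control 1. In acetate against control in KO, Errfi1 went from -0.06 to 0.20 and Tsc22d3 from -0.25 to 0.02. In abx_and_acetate against control in KO, Sgk1 went from -0.26 to 0.13. Counts at an unadjusted p under 0.05 moved more: in antibiotics against control in KO, 6 became 2 without KO_abx 1 or KO_abx 3 and 3 with an RNA integrity term. In KO against WT under antibiotics, 2 became 0 without WT_abx 1, WT_abx 3 or KO_abx 1, and 4 with only the compared groups fitted. In acetate against control in WT, 1 became 0 without WT_acetate 5 or the 4 libraries against their sex label, 2 without WT_acetate 3 and 4 with only the compared groups fitted. The causes were not tested. No paired analysis was possible because the labels give no shared replicate numbers. Depth limits Angptl4 most, at 27 to 53 reads in WT_control.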
